A study of Zea mays with 6 samples.

Results

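The maize lipoxygenase family is described here by 10 genes, chosen by identifier among the 44351 genes listed in each library. They are 5 genes of the 9-LOX class (lox1 to lox5) and 5 of the plastid class (lox6, lox8, which is tasselseed1, lox9, lox10 and lox11). Other lipoxygenases, for which no identifier was found, are not covered, so sums and shares refer to these 10 genes. Lipoxygenases are iron-containing dioxygenases that add oxygen to polyunsaturated fatty acids and so start the synthesis of oxylipins. In plants the 9-LOX enzymes give hydroperoxides that lead to ketols, divinyl ethers and death acids, many of them made during pathogen attack. Plastid lipoxygenases of the other positional type feed allene oxide synthase, the entry to jasmonic acid, or hydroperoxide lyase, which releases the green leaf volatiles. The files give identifiers only, so the symbols and classes are those assigned to the identifiers when the family was compiled. RefSeq's gene table for assembly Zm-B73-REFERENCE-NAM-5.0 lists all 10 symbols but pairs none with an identifier of the files. Positions in it were therefore looked up by symbol only. In that table lox1 and lox2 are direct neighbours, and so are lox3 and lox4, with 0 annotated genes between the members of each pair. Fragments shared by close copies cannot be assigned to a single gene in the deposited values.

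Leaf RNA of the maize inbred line KN5585 was compared between a transgenic strain (T, 3 libraries) and its non-transgenic negative control (CK, 3 libraries). The series title names ZmSUS1, a sucrose synthase, as the overexpressed gene. The sources used here give neither its promoter nor the number of transformation events, and its level was not analysed because no identifier could be paired with it. Both groups carry a time point of 3 days of drought in the sample labels, and the series text gives 5 days, but the treatment label is "transgenic" for T and "normal" for CK. If the CK plants were watered, each difference below would include drought, and the 2 cannot be told apart. The series calls the libraries biological replicates without saying whether separate plants were used, so the p-values measure the spread between these libraries only. Leaf markers could not be paired with identifiers, and the tissue was taken from the label.

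Values are FPKM, which divide a gene's fragments by its length and by the library's mapped fragments, so levels of different genes are compared per length. The read depth behind them is unknown. Total FPKM was 829541 to 831082 in the T libraries and 684047 to 689548 in the CK libraries. Over the 22944 genes that averaged 0.5 FPKM or more, the median log2 difference, T minus CK, was -0.56, so most genes stood lower in T as deposited. Median-of-ratios scaling, called median scaling below, brings that median to -0.02 and is therefore given beside the deposited values of genes and sums. In bulk leaf tissue, fewer cells of a type and less RNA per cell cannot be told apart.

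Members of the family moved in different directions, and the family's make-up differed between the groups. Of the 10 genes, 9 passed the minimum level and were tested (limma on log2(FPKM + 1), Benjamini-Hochberg adjustment over all tested genes, threshold 0.05). As deposited, 7 were called: lox4 and lox8 were higher in T, and lox3, lox5, lox6, lox9 and lox10 were lower, whereas lox1 and lox11 did not pass and lox2 was not tested. Over all tested genes 84.0% were called, 16.3% higher and 67.7% lower, so the count of 7 in 9 is near the background. After median scaling 8 members were called, 4 higher (lox4, lox8, lox10 and lox11) and 4 lower (lox3, lox5, lox6 and lox9), where 73.2% of all tested genes were called, 36.3% higher and 36.9% lower. The T and CK libraries did not overlap for 8 of the 9 tested members, against 84.5% of all tested genes. The median log2 difference of the tested members was -0.25, beside -0.56 over all tested genes. After median scaling these medians were 0.013 and -0.02, but after quantile normalisation -0.51 and -0.05, so their order depends on the scaling.

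**Figure D1:**
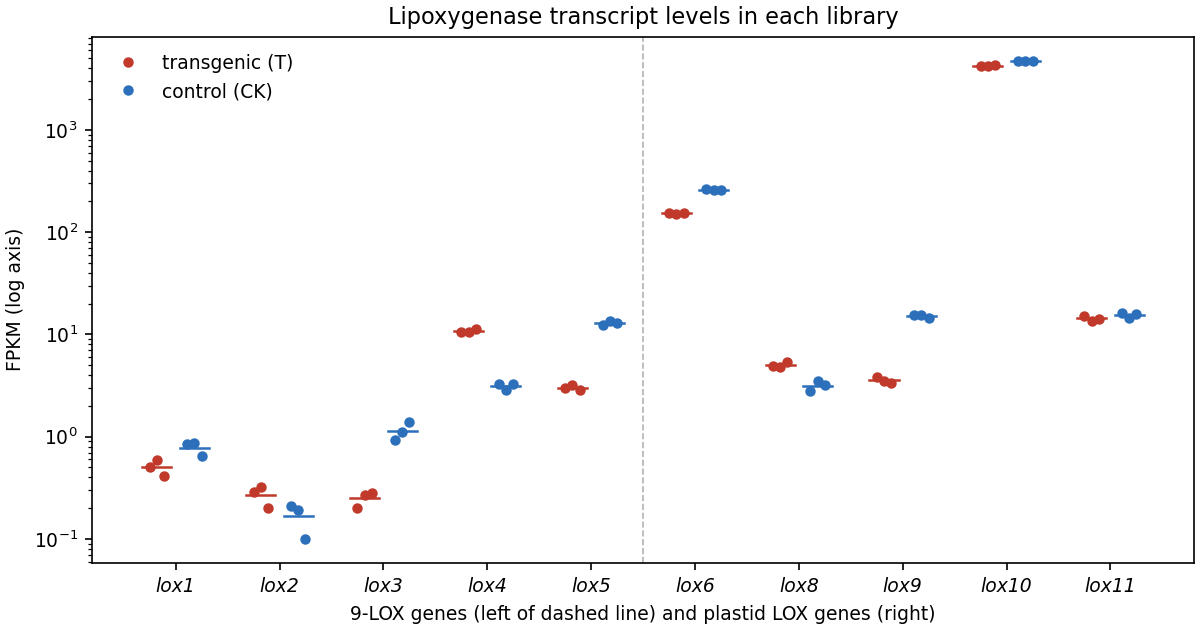
FPKM of the 10 lipoxygenase genes in each library on a log axis, with T libraries in red to the left of CK libraries in blue; points are libraries and short lines are means of 3. The genes span from below 1 FPKM (lox1, lox2) to above 4000 FPKM (lox10), and lox4 and lox8 are the genes of at least 0.5 FPKM whose T libraries all lie above the CK libraries.

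Transcripts of lox10 (Zm00001d053675) made up most of the family's FPKM in both groups. LOX10 is the maize plastid lipoxygenase needed for green leaf volatiles in leaves. Its level was 4249, 4184 and 4293 FPKM in the T libraries, against 4682, 4736 and 4761 FPKM in the CK libraries. All 3 T libraries lay below all 3 CK libraries, with a coefficient of variation of 1.29% in T and 0.851% in CK. On the log2 scale lox10 differed by -0.16 ± 0.01 (SE, n = 3 per group, limma adjusted p = 6.4e-06) as deposited, but 0.53 after median scaling (limma adjusted p = 7.5e-09), -0.43 with equal library totals and -1.34 after quantile normalisation, so its direction depends on the scaling. It took 95.7% ± 0.04 of the summed FPKM of the 10 genes in T and 93.8% ± 0.12 in CK (SD, n = 3 each), but 93.4% ± 0.11 in T and 95.9% ± 0.11 in CK after quantile normalisation.

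Among all genes of a library, lox10 ranked 36th, 37th and 35th in T but 6th, 5th and 6th in CK. It is 1 of 152 tested genes that averaged at least 500 FPKM over the 6 libraries, of which 78.3% were called higher and 19.1% lower in T. The median log2 difference of these abundant genes was 1.35, which lies 1.51 above that of lox10, and 126 of them had a larger difference than lox10. The distance to that median was the same, to 2 decimals, after median scaling, because a factor per library shifts genes this abundant almost equally. A gene reaches this class also when its level is high in T or in CK alone, which favours large differences. Against all tested genes, lox10 stood above the median difference by 0.40.

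The next highest level was that of lox6 (Zm00001d002000). LOX6 is an unusual plastid member that has been described as acting on fatty acid hydroperoxides rather than on the fatty acids themselves. Its level was 153.4, 151.6 and 152.7 FPKM in the T libraries, against 264.6, 257.7 and 258.8 FPKM in the CK libraries. The T values lay below every CK value and varied by 0.616% in T and 1.43% in CK. For lox6 the log2 difference was -0.77 ± 0.02 (SE, n = 3 per group, limma adjusted p = 5.5e-09) as deposited and -0.09 after median scaling (limma adjusted p = 0.0057). The deposited difference is 0.21 below the median of all tested genes, and 37.2% of these genes had a lower one. With 0.1 in place of 1 added to FPKM (the pseudocount), 45.6% had a lower one. With equal library totals the difference of lox6 was -1.04, and 33.9% had a lower one. After quantile normalisation it was -0.80, and 12.8% had a lower one. Against tested genes averaging 50 to 500 FPKM, lox6 stood 0.48 below the median difference, both as deposited and after median scaling.

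The gene lox11 (Zm00001d015852) encodes a plastid lipoxygenase close to LOX10 in sequence, but its level per length was far lower. Its level was 15.31, 13.58 and 14.17 FPKM in T, against 16.06, 14.43 and 15.70 FPKM in CK, and the groups overlapped. The log2 difference of lox11 was -0.10 (95% interval -0.24 to 0.05, limma adjusted p = 0.18) as deposited, 0.55 after median scaling (limma adjusted p = 6.2e-05), 0.51 after quantile normalisation and -0.35 with equal library totals (limma adjusted p = 0.00054). The ratio of lox10 to lox11 within a library, which scaling by a library factor leaves as it is, was 278, 308 and 303 in T and 292, 328 and 303 in CK, and these ranges overlapped. How many of the fragments counted for lox11 came from the far more abundant lox10 cannot be told from these values, and was not tested.

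The remaining plastid genes, lox8 (Zm00001d003533) and lox9 (Zm00001d027893), moved apart. LOX8 (TASSELSEED1) is a plastid lipoxygenase of jasmonate synthesis whose loss feminises the tassel, and LOX9 belongs to the same class. The level of lox9 was 3.82, 3.52 and 3.32 FPKM in T, against 15.57, 15.45 and 14.34 FPKM in CK. That is a 4.26-fold lower mean in T, with no overlap and the T libraries within 0.5 FPKM of each other. On the log2(FPKM + 1) scale, which shrinks this fold, lox9 differed by -1.82 ± 0.07 (SE, n = 3 per group, limma adjusted p = 3.6e-08), and by -1.23 after median scaling. With a pseudocount of 0.1 the deposited difference was -2.06. Of all tested genes 4.53% had a lower deposited difference than lox9 with a pseudocount of 1, and 7.93% with a pseudocount of 0.1.

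The level of lox8 was 4.89, 4.79 and 5.43 FPKM in T, against 2.78, 3.48 and 3.19 FPKM in CK. Each T library was above each CK library. The log2 difference of lox8 was 0.54 ± 0.09 (SE, n = 3 per group, limma adjusted p = 0.00047), 1.08 after median scaling and 0.32 with equal library totals, all higher in T and all past the threshold. The ratio of lox8 to lox9 was 1.43 ± 0.19 in T and 0.209 ± 0.026 in CK (SD, n = 3 each), so lox8 exceeded lox9 in every T library and lay below it in every CK library.

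**Figure D2:**
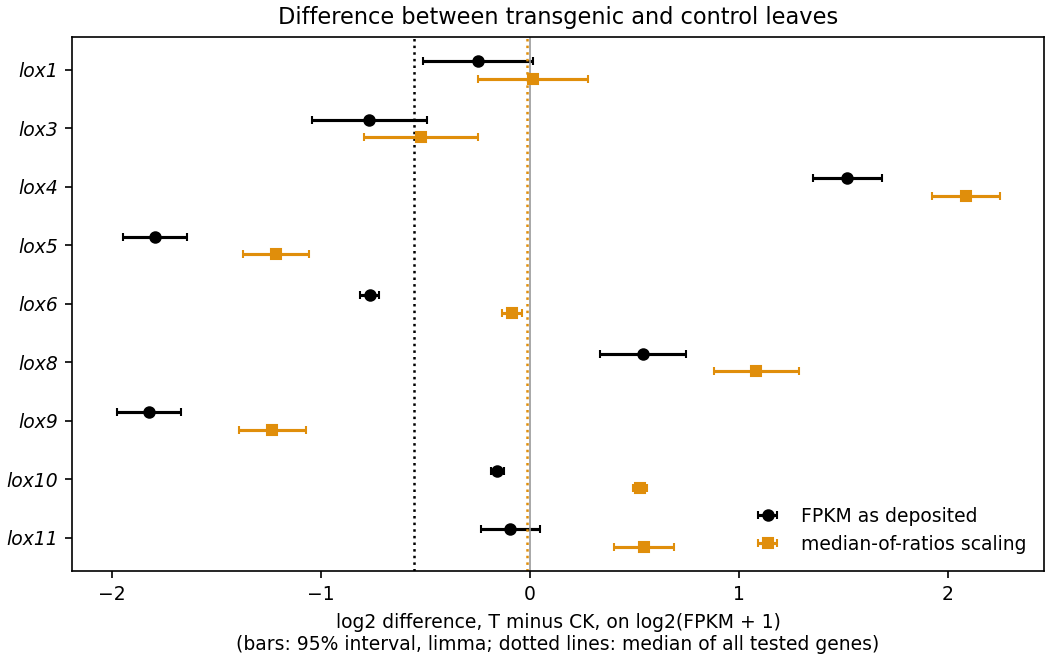
Log2 difference, T minus CK, on log2(FPKM + 1) for the 9 tested genes, with FPKM as deposited in black and after median scaling in orange; bars are 95% intervals from limma and dotted lines are the medians of all tested genes (-0.56 and -0.02). The genes lox4 and lox8 lie above 0 and lox3, lox5, lox6 and lox9 below 0 under both. In contrast, lox10 stands at -0.16 as deposited and at 0.53 after scaling, and lox11 at -0.10 and 0.55. The gene lox1, called under neither, stands at -0.25 and 0.013.

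In the 9-LOX class, lox4 (Zm00001d033624) and lox5 (Zm00001d013493) stood in opposite order in the 2 groups. Both encode 9-lipoxygenases, and in maize LOX5 has been linked to wounding and insect feeding. The level of lox4 was 10.54, 10.63 and 11.40 FPKM in T, against 3.28, 2.86 and 3.28 FPKM in CK, a mean 3.46-fold higher in T. The level of lox5 was 3.02, 3.18 and 2.85 FPKM in T, against 12.25, 13.59 and 12.98 FPKM in CK, a mean 4.29-fold lower in T. Neither gene's groups overlapped, and the T libraries of lox5 reached into the range of lox4 in CK. The log2 difference of lox4 was 1.52 ± 0.07 (SE, n = 3 per group, limma adjusted p = 1.5e-07), and 2.09 after median scaling; 2.62% of all tested genes had a higher deposited difference. For lox5 the log2 difference was -1.79 ± 0.07 (SE, n = 3 per group, limma adjusted p = 4.1e-08), and -1.22 after median scaling. A lower deposited difference than that of lox5 was found for 4.80% of all tested genes, and for 7.89% with a pseudocount of 0.1.

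The summed FPKM of the 5 9-LOX genes described here was 14.9 ± 0.3 in T and 18.2 ± 0.6 in CK as deposited (SD, n = 3 each). After median scaling it was 18.9 ± 0.4 in T and 14.3 ± 0.5 in CK (SD, n = 3 each). The direction of the sum thus depends on the scaling. Of that sum lox4 held 72.4%, 70.9% and 75.3% in the T libraries, against 18.7%, 15.4% and 17.8% in the CK libraries. The share of lox5 was 20.8%, 21.2% and 18.8% in T, against 70.0%, 73.0% and 70.6% in CK. Thus, among these 5 genes, lox4 held the largest share in every T library and lox5 in every CK library.

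**Figure D3:**
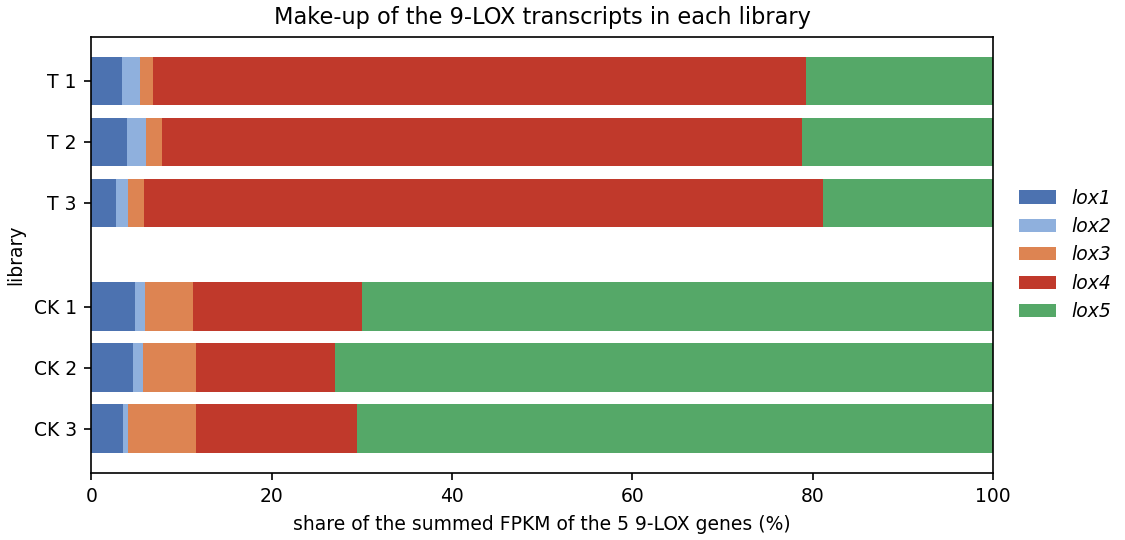
Share of the summed FPKM of the 5 9-LOX genes held by each gene, as stacked bars, with the 3 T libraries above the 3 CK libraries. lox4 fills 70.9% to 75.3% of the bar in T and 15.4% to 18.7% in CK, and lox5 fills 18.8% to 21.2% in T and 70.0% to 73.0% in CK.

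The gene lox3 (Zm00001d033623), the neighbour of lox4, was low and moved the other way. LOX3 is a 9-lipoxygenase whose mutants have altered susceptibility to fungi and nematodes. Its level was 0.20, 0.27 and 0.28 FPKM in T, against 0.92, 1.10 and 1.39 FPKM in CK, without overlap. For lox3 the log2 difference was -0.77 ± 0.12 (SE, n = 3 per group, limma adjusted p = 0.00034), -0.52 after median scaling and -1.81 with a pseudocount of 0.1, since a pseudocount of 1 understates changes of low genes. Of all tested genes 37.2% had a lower difference than lox3 with a pseudocount of 1, and 10.9% with a pseudocount of 0.1. Summed over both neighbours, lox3 and lox4 had 11.1 ± 0.5 FPKM in T and 4.28 ± 0.36 FPKM in CK (SD, n = 3 each), and 14.1 ± 0.6 in T and 3.37 ± 0.27 in CK after median scaling.

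The neighbours lox1 (Zm00001d042541) and lox2 (Zm00001d042540) were at the lower end of the family. LOX1 has been described as adding oxygen at either position of linoleic acid. The level of lox1 was 0.50, 0.59 and 0.41 FPKM in T, against 0.84, 0.87 and 0.64 FPKM in CK. These ranges did not overlap, but the log2 difference of lox1 was -0.25 (95% interval -0.51 to 0.01) and did not pass the threshold (limma adjusted p = 0.070). Without CK replicate 3 it was -0.31 and passed (limma adjusted p = 0.0495), and after median scaling it was 0.013 (limma adjusted p = 0.92). The level of lox2 was 0.29, 0.32 and 0.20 FPKM in T, against 0.21, 0.19 and 0.10 FPKM in CK, with overlap. It fell below the minimum of 0.5 FPKM, and without that filter its log2 difference was 0.12 (limma adjusted p = 0.14). Summed, lox1 and lox2 had 0.770 ± 0.151 FPKM in T and 0.950 ± 0.182 FPKM in CK (SD, n = 3 each), with overlap, and 0.976 ± 0.188 in T and 0.750 ± 0.146 in CK after median scaling, again with overlap but in the other direction. How many fragments lie behind values this low is unknown.

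**Figure D4:**
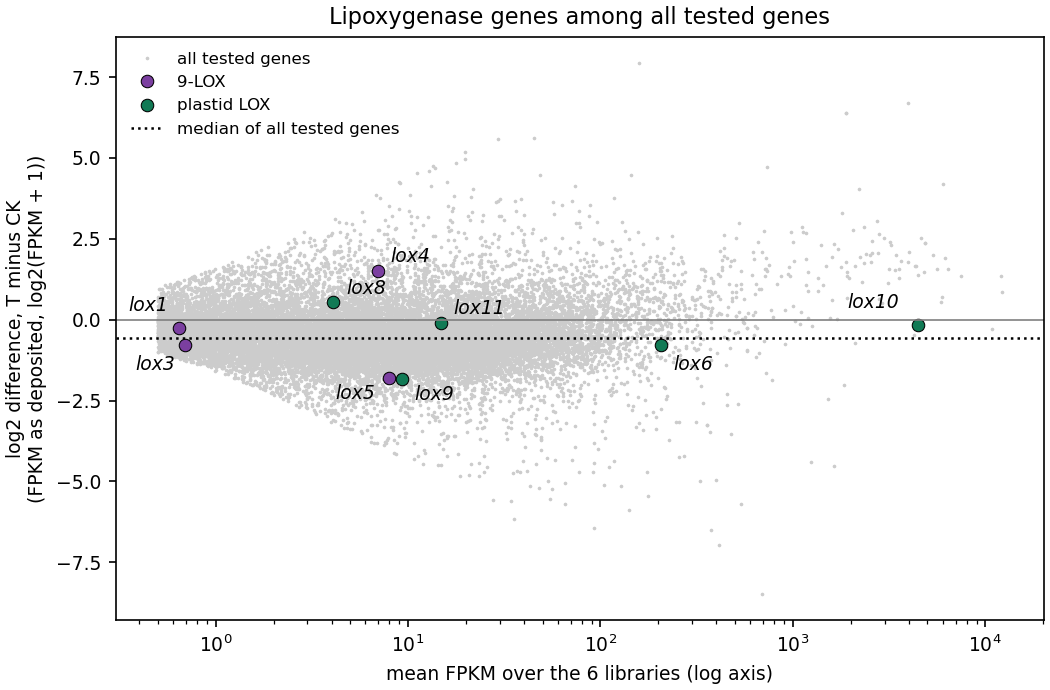
Log2 difference, T minus CK, of FPKM as deposited against mean FPKM over the 6 libraries on a log axis, for all 22944 tested genes in grey and the 9 tested lipoxygenase genes in colour (purple 9-LOX, green plastid); the dotted line is the median of all tested genes at -0.56. Among genes of 5 to 50 FPKM, lox4 at 1.52 lies above 97.7% and lox5 and lox9 at -1.79 and -1.82 lie below 94.3% and 94.6%. In turn, lox10 lies below 82.9% of genes of at least 500 FPKM. With median scaling lox10 and lox11 stand above 0, and lox1 stands at 0.013 (95% interval -0.25 to 0.28).

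The order of the levels therefore differed between the groups below the top 3 places. In T it ran lox10, lox6, lox11, lox4, lox8, lox9, lox5, lox1, lox2 and lox3, and lox2 and lox3 were the neighbours in this order whose libraries overlapped. In CK it ran lox10, lox6, lox11, lox9, lox5, lox8, lox4, lox3, lox1 and lox2, where lox11 overlapped with lox9 and lox8 with lox4.

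Ratios between members within a library do not change when a library is multiplied by a factor, and 8 of them were compared after the levels had been seen. The ratio of lox4 to lox5 was 3.49, 3.34 and 4.0 in T, against 0.268, 0.210 and 0.253 in CK. The ratio of lox4 to lox3 was 44.3 ± 7.3 in T and 2.84 ± 0.64 in CK (SD, n = 3 each). The ratio of lox11 to lox9 was 4.04 ± 0.21 in T and 1.02 ± 0.08 in CK (SD, n = 3 each), and that of lox10 to lox6 was 27.8 ± 0.3 in T and 18.2 ± 0.4 in CK (SD, n = 3 each). The groups did not overlap for these 4 ratios, nor for lox8 to lox9, lox10 to lox4 and lox6 to lox11. Each of these 7 had an exact two-sided permutation p = 0.1, which is the lowest possible with 3 libraries in each group, and 0.11 after Benjamini-Hochberg adjustment over the 8. For lox10 to lox11 the exact permutation p was 0.5. Quantile normalisation is no such factor: with it the ratio of lox10 to lox6 was 18.6 ± 0.4 in T and 27.0 ± 0.8 in CK, the opposite direction, that of lox10 to lox11 no longer overlapped, at 156.4 ± 8.5 in T and 579.8 ± 39.0 in CK, and the other 6 kept their direction. Such ratios show unequal change between members and not which member changed.

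The summed FPKM of all 10 genes, most of it lox10, was 4441, 4373 and 4484 in T, against 4999, 5046 and 5071 in CK, a log2 ratio of the means of -0.18, and of 0.50 after median scaling. Without lox10 the sum was 190.4 ± 1.8 FPKM in T and 312.2 ± 3.8 FPKM in CK (SD, n = 3 each), against 241.3 ± 3.4 in T and 246.3 ± 3.2 in CK with overlap after median scaling. Of this sum lox6 held 80.1% ± 0.3 in T and 83.4% ± 0.2 in CK, shares that median scaling leaves as they are. Other genes of the oxylipin pathway, such as those of allene oxide synthase, hydroperoxide lyase, oxophytodienoate reductase and jasmonate signalling, had been listed by symbol. So had 3 other lipoxygenases. Of 70 listed symbols, leaf markers included, 0 could be paired with an identifier of the files, so these genes are not reported.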

How the data were processed

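RNA-seq of leaf was analysed in 3 T and 3 CK libraries. For each library the authors deposited FPKM of 44351 genes in a table of its own, per the file headers. Library preparation used a SMARTER mRNA-Seq kit, per the labels' protocols. The submitters' processing notes name DESeq2 and mm10, a mouse build, without a role; no source used here names the aligner, the counter or the maize build. FPKM holds no fragment numbers, so the depth per library is unknown and counting intervals cannot be given.

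With limma 3.58.1 (R 4.3.3), genes averaging 0.5 FPKM or more over the libraries were compared on the log2(FPKM + 1) scale (group as the only term, intensity trend, two-sided, Benjamini-Hochberg over 22944 genes, threshold 0.05); fold changes on this scale understate changes of low genes. The test was checked on simulated data with few changed genes and no shift between the groups. That check does not cover the effect of scaling. Median-of-ratios factors were computed on FPKM. Ratios were compared with exact permutation tests, and sums and shares were not tested. All 10 members are named. Members and gene lists were chosen with earlier results of these data known. Same-numbered T and CK libraries had deviations that correlated at 0.0019, -0.051 and 0.0018, so they were not paired. Alternatives were another pseudocount, 2 other filters, 3 scalings, no trend, a replicate block, a threshold of 0.01 and leaving out each library. Python 3.11.15, pandas 2.3.3 and matplotlib 3.10.9 were used.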

Additional observations from a re-analysis of the deposited data

How the results depend on the processing

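As deposited, 7 members passed the threshold, 2 higher and 5 lower in T. Over the alternatives the count was between 6 with a mean of at least 2 FPKM, where fewer members were tested, and 9 with equal library totals. The higher members numbered 4 with median-of-ratios scaling. With a replicate block the count was 7, and the block changed no call. The check of deviations showed no likeness of same-numbered libraries, and for 0 of 3 T libraries was the same-numbered CK library the one with the highest correlation. That check cannot show whether same-numbered libraries were grown or processed together. Leaving out single libraries gave 7 to 8 called members, 2 higher in every case and 5 to 6 lower; the added call was lox1 without CK replicate 3. The log2 ratio of the summed FPKM, -0.18, was 0.50 with median-of-ratios scaling, -0.46 with equal library totals and -1.31 with quantile normalisation, and between -0.19 and -0.18 without single libraries. Median-of-ratios and equal totals move this sum by construction, as each multiplies a library by a factor. Quantile normalisation sets each value by the gene's rank in its library. By rank lox10, most of this sum, stood 36th, 37th and 35th in T but 6th, 5th and 6th in CK. Single differences turned sign for lox1 (0.013 by median-of-ratios and 0.031 by quantile normalisation), lox10 (0.53 by median-of-ratios) and lox11 (0.55 by median-of-ratios and 0.51 by quantile normalisation). Of 133 values of single tested members under alternatives, 123 kept direction and call, 5 turned sign and 5 gained the call with the sign kept (lox1 without a filter, with equal totals, without the trend and without CK replicate 3, and lox11 with equal totals). Both sign changes of lox11 also gained the call, so 7 values gained it and 0 lost it. Of the shares in the family sum, quantile normalisation turned those of lox10, from 1.90 to -2.52 percentage points (T minus CK), lox6, from -1.73 to 1.47, and lox1, from -0.0043 to 0.014. The differences of lox3, lox4, lox5, lox6, lox8 and lox9 kept direction and call in every alternative in which they were tested. Depth is unknown, so what it limits for lox1, lox2 and lox3, all low, was not derived.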
